A study of Mus musculus with 6 samples.

Results

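Cancer-associated fibroblasts (CAFs) are commonly recognised by a small set of surface and matrix genes, and 10 of them are described here in the colon tumors of mice: Fap, Pdpn, Postn, Tnc, Thy1, Cd248, Sparc, Fn1, Cthrc1 and Lrrc15. They were chosen by name as CAF activation markers, with earlier results of these data known. Each had 1 row among the 49548 genes of the deposited table. The 6 libraries came from Col6a1-cre, Rosa26-mTmG mice of the C57/BL6 strain that developed colitis-associated cancer after AOM, a carcinogen, and cycles of DSS, an irritant of the colon. The mice were 8 to 10 weeks old at the AOM injection, per the study's methods. After removal of CD45, EpCAM, CD31 and Ter119 positive cells, 3 libraries were made from GFP+ cells (Col6a1+ CAFs) and 3 from Tomato+ cells (Col6a1- CAFs), each from tumors pooled over 5 to 6 mice. Every library carries the same Cre and reporter and the same treatment. GFP marks each cell in which the Col6a1 Cre has been active, and its progeny, so it records a past activity of that promoter and covers both pericytes and fibroblasts near the epithelium. The Tomato+ cells are those that passed the same sort without that label, and their libraries also held epithelial transcripts, as given beside the results. No library of normal colon was analysed here.

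Resting fibroblasts that enter a tumor stroma become activated: they raise contractile and matrix genes, often under TGF-beta, and display surface proteins that quiescent cells carry less of. Among the members, Sparc, Fn1, Postn, Tnc and Cthrc1 encode secreted proteins of the matrix, whereas Thy1, Cd248, Pdpn, Fap and Lrrc15 encode proteins of the cell surface. None of these genes belongs to fibroblasts alone. Thy1 is also found on T cells, Cd248 on pericytes, and Pdpn on lymphatic endothelium.

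The authors divided the read counts of each gene by size factors, and the levels given here are these normalized counts. They come from 3′ mRNA sequencing, which reads the ends of transcripts, and were not divided by gene length, so levels are compared between libraries and not between genes. The libraries summed to between 3039152 and 3425249 normalized counts. Col6a1+ replicate 1 had 14530 genes with at least 1 count, and the other libraries had 18770 to 20511. Where a gene is at 0, a level of up to 3 raw counts remains possible, for counting error only. In normalized counts that bound would change with the size factor of the library. It also leaves out other differences between libraries. Itga5, for example, had 1 count in Col6a1+ replicate 1 and 505 and 530 in the other Col6a1+ libraries. Col6a1 itself, the check of the sort, had 861, 1287 and 1941 normalized counts in Col6a1+ CAFs and 182, 321 and 102 in Col6a1- CAFs. In bulk libraries, fewer cells of a type and less RNA per cell cannot be told apart.

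RefSeq promoter windows (GRCm38.p6) were on hand for 5 of the members, Postn, Tnc, Pdpn, Sparc and Lrrc15. The 250 bases before the start site are shown for 2 matrix genes that were higher in Col6a1+ CAFs, Postn and Tnc, and for Pdpn, whose levels overlapped between the subsets. Capitals mark matches on either strand to TATAAA (the TATA box), TGANTCA (AP-1), CAGAC (SMAD), GGAATG (TEAD), GGGCGG (the GC box) or the CArG box of serum response factor. None of the marked matches overlap. The Postn window is chr3:54360857-54361106 on the + strand, that of Tnc is chr4:64047016-64047265 on the - strand, and that of Pdpn is chr4:143299565-143299814 on the - strand.
Postn: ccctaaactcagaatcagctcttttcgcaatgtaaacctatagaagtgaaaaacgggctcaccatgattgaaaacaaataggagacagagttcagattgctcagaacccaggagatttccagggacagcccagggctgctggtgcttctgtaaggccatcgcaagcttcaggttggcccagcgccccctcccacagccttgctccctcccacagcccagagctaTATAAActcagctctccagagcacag
Tnc: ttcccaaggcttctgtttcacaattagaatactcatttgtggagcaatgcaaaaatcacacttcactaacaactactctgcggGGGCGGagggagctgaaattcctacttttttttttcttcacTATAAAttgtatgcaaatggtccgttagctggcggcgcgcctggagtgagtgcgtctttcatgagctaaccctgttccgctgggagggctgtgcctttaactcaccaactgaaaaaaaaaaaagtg
Pdpn: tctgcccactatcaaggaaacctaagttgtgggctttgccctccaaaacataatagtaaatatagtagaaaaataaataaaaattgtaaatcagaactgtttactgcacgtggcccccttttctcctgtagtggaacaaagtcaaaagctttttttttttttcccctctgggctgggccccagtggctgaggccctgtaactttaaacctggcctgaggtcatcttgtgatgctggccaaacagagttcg
Postn held a TATAAA match that begins 26 bases before its start site. Tnc held one that begins 126 bases before its start site, and a GC box match. The Pdpn window held none of the 6 motifs. A TATAAA match on either strand was present in 12.4% of the 32851 windows of this length in the RefSeq table, and a GC box in 32.7%, and a match describes the letters only. The Sparc window, which lies mostly in exons of longer transcripts and is not shown, held a SMAD match, and that of Lrrc15 held AP-1 and GC box matches. The corresponding shares were 6.75% for AP-1, 42.2% for SMAD, 12.6% for TEAD and 1.47% for the CArG box.

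Of the 10 markers, 6 were higher in Col6a1+ CAFs and 0 were lower. The 6 were the matrix genes Sparc, Fn1, Postn and Tnc and the surface genes Thy1 and Cd248, by 1.31 to 3.75 on the log2 scale. Over all 26402 genes tested, 2.66% were higher and 1.96% lower by the same rule, an adjusted p under 0.05 in limma (a linear model on log2 of the normalized count plus 1, with Benjamini-Hochberg adjustment). At an unadjusted p under 0.05 with a log2 difference over 1, 7 markers were higher and 0 lower, against 6.09% and 8.61% of all genes. The median log2 fold change was 2.11 over the 10 markers and -0.27 over all genes tested. Since the markers were chosen with earlier results of these data known, the values over all genes are background and no test of the list. For 7 markers the lowest Col6a1+ library exceeded the highest Col6a1- library, which held for 7.91% of all genes tested (11.6% in the opposite order), and for 14.2% of the 13515 genes averaging at least 10 counts. Such a mean was reached by 8 of the 10 markers, since Cthrc1 and Lrrc15 were near 0. The replicate numbers appear to pair the libraries. With the number as a block, the adjusted p of the 6 genes rose to between 0.0612 and 0.120, and no gene of the whole table passed 0.05, although 8 of the markers were higher at an unadjusted p under 0.05 in that fit (7.01% of all genes higher, 9.72% lower). When the fit was limited to genes averaging at least 10 counts, the 6 passed with the block, and 7.26% of genes were higher and 6.44% lower. Without Col6a1- replicate 1, or without its replicate 3, 0 of the markers passed, 1 passed without its replicate 2, and 3 or 4 when a Col6a1+ library was left out. Over all genes, 11 to 453 were higher in these fits. When they kept the genes that the remaining libraries hold at 0, 0 of the markers passed in all 6.

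**Figure D1:**
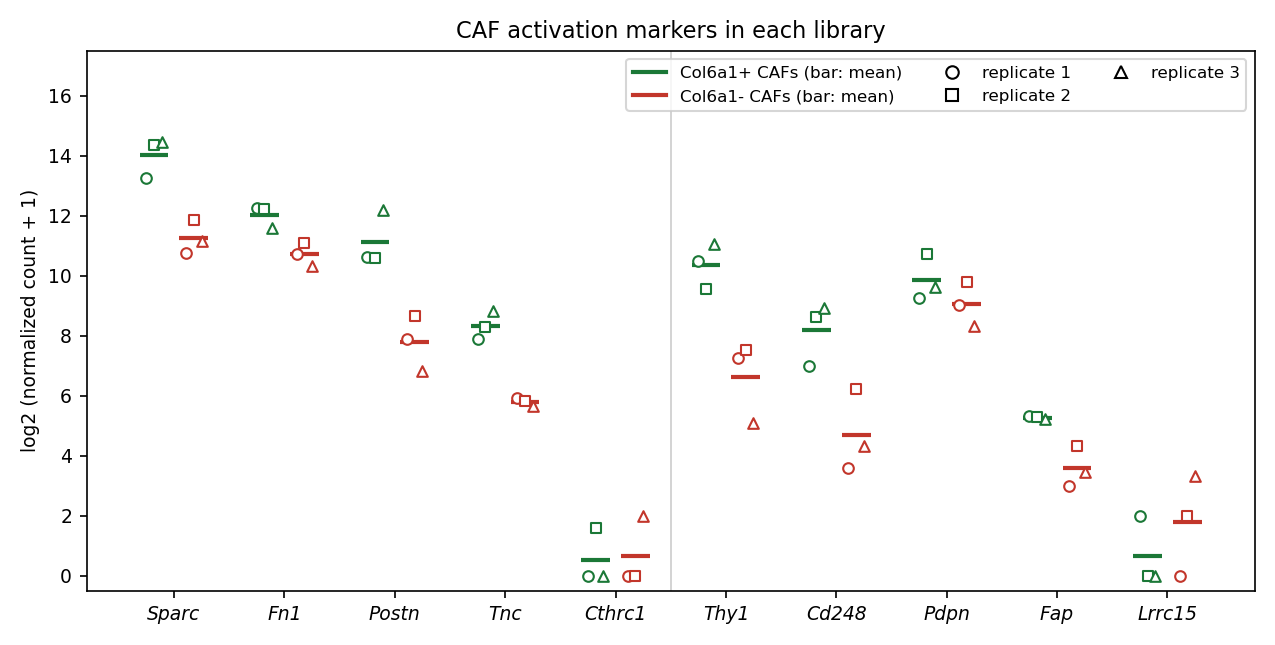
Level of each CAF activation marker in each library, as log2 of the normalized count plus 1 (y axis), with matrix genes left of the line and surface genes right of it. Symbols are single libraries by replicate number and bars are means of 3 libraries. The subsets are apart for Sparc, Fn1, Postn, Tnc, Thy1, Cd248 and Fap, overlap for Pdpn, and lie near 0 for Cthrc1 and Lrrc15.

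Sparc encodes osteonectin, a collagen-binding protein that regulates how cells assemble matrix (chromosome 11, 55394500 to 55423183 of mm10). It reached 9701, 21148 and 22436 normalized counts in Col6a1+ CAFs and 1747, 3724 and 2278 in Col6a1- CAFs. The subsets did not overlap, and the lowest Col6a1+ library held 2.60 times the highest Col6a1- library. Sparc was higher by 2.76 ± 0.40 (SE) on the log2 scale, with a limma adjusted p of 0.00446 (block 0.0612).

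Fn1 encodes fibronectin, the adhesive scaffold on which other matrix proteins are laid down (chromosome 1, 71585520 to 71653200). Its normalized counts were 4885, 4821 and 3054 in Col6a1+ CAFs and 1673, 2195 and 1284 in Col6a1- CAFs. The 2 groups stood apart, but by less than those of any other marker that was called. Fn1 was higher by 1.31 ± 0.31 (SE) on the log2 scale, with a limma adjusted p of 0.0409 (block 0.0680). Fn1 lost its call when any 1 library was left out (adjusted p of 0.0676 to 0.214), with log2 differences of 1.12 to 1.53.

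Postn encodes periostin, a matricellular protein that binds integrins and crosslinks collagen (chromosome 3, 54361109 to 54391037). Col6a1+ CAFs held 1576, 1546 and 4653 normalized counts and Col6a1- CAFs 236, 399 and 112. Col6a1+ replicate 3 stood at about 3 times the level of the other Col6a1+ libraries, and all 3 were above the Col6a1- libraries. On the log2 scale the difference was 3.35 ± 0.52 (SE), with a limma adjusted p of 0.00613 (block 0.120).

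Tnc encodes tenascin C, a large glycoprotein of remodelling tissue (chromosome 4, 63959785 to 64047015). Its counts were the most even of the matrix genes in Col6a1- CAFs, at 59, 55 and 49, against 234, 313 and 450 in Col6a1+ CAFs. Every Col6a1+ library lay at least 3.97 times above the highest Col6a1- library. This gave a log2 difference of 2.54 ± 0.37 (SE) and a limma adjusted p of 0.00408 (block 0.0677). It overlaps a transcript on the other strand that summed to 1 count over all libraries.

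Cthrc1, a secreted gene of activated fibroblasts that is linked to collagen deposition (chromosome 15, 39076932 to 39087121), was barely detected. Its normalized counts were 0, 2 and 0 in Col6a1+ CAFs and 0, 0 and 3 in Col6a1- CAFs. No library exceeded 3 counts, so no fold change is given.

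Among the surface genes, Thy1 encodes CD90, a GPI-anchored glycoprotein of fibroblasts (chromosome 9, 44043384 to 44048579). It had 1436, 747 and 2123 normalized counts in Col6a1+ CAFs and 151, 181 and 33 in Col6a1- CAFs. No library of one subset reached into the other. The difference of 3.75 ± 0.61 (SE) on the log2 scale (limma adjusted p = 0.00718, block 0.120) was the largest of the 10 in this fit, and the Col6a1- libraries spread over 5.48-fold. The T cell genes Cd3e and Cd3d had at most 3 and 14 counts in any library, and Ptprc, which encodes CD45, at most 8.

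Cd248 encodes endosialin, a transmembrane protein of pericytes and tumor stroma, from a single exon (chromosome 19, 5068078 to 5070637). Its normalized counts came to 127, 397 and 487 in Col6a1+ CAFs and to 11, 73 and 19 in Col6a1- CAFs. Both groups were uneven, with Col6a1+ replicate 1 low and Col6a1- replicate 2 high, and they did not overlap. Cd248 was higher by 3.48 ± 0.71 (SE) on the log2 scale, with a limma adjusted p of 0.0205 (block 0.0722). It passed without Col6a1+ replicate 1 (log2 difference 4.08, adjusted p = 0.0480) and did not pass when any other library was left out.

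Pdpn encodes podoplanin, a mucin-type protein that links the membrane to the cytoskeleton (chromosome 4, 143267431 to 143299564). Its normalized counts were 607, 1686 and 780 in Col6a1+ CAFs and 517, 875 and 323 in Col6a1- CAFs. Col6a1- replicate 2 was above both Col6a1+ replicates 1 and 3, so the groups overlapped. Its log2 difference of 0.82 had a 95% interval of -0.18 to 1.81 and a limma adjusted p of 0.434. Within each pair of libraries with the same number it was higher in Col6a1+ CAFs, by 0.23, 0.95 and 1.27 on the log2 scale, and with the block its unadjusted p was 0.0315 (adjusted p = 0.241).

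Fap encodes fibroblast activation protein, a serine protease of the surface (chromosome 2, 62500943 to 62574075). It was low in every library, with 39, 38 and 36 normalized counts in Col6a1+ CAFs and 7, 19 and 10 in Col6a1- CAFs. The Col6a1+ libraries were nearly equal, and each held at least 1.89 times the highest Col6a1- library. A log2 difference of 1.68 (95% interval 0.21 to 3.15) did not pass over all genes (limma adjusted p = 0.226, unadjusted p = 0.0287).

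Lrrc15, a leucine-rich repeat membrane protein that marks TGF-beta driven CAFs of several carcinomas (chromosome 16, 30269302 to 30283256), had 3, 0 and 0 normalized counts in Col6a1+ CAFs and 0, 3 and 9 in Col6a1- CAFs. Only Col6a1- replicate 3 exceeded 3 counts. At this depth no difference was detectable (limma adjusted p = 0.633).

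**Figure D2:**
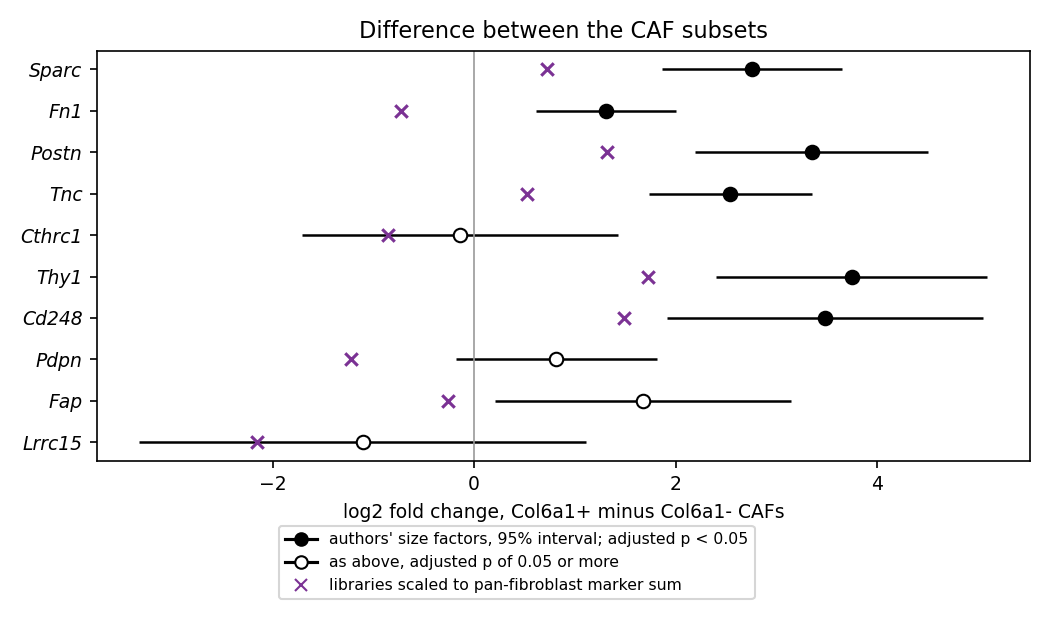
Log2 fold change of each marker, Col6a1+ minus Col6a1- CAFs (x axis), with the 95% interval of the limma fit to 3 libraries in each group; filled circles have an adjusted p under 0.05. Crosses give the same difference after scaling every library to the same sum of pan-fibroblast markers, where Thy1, Cd248 and Postn lie between 1.32 and 1.72 and Fn1, Pdpn and Fap fall below 0. Cthrc1 and Lrrc15 rest on few counts.

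The libraries differed within each group in ways that several markers shared. In Col6a1- CAFs, 7 of the 10 markers were highest in replicate 2, namely Fap, Pdpn, Postn, Thy1, Cd248, Sparc and Fn1. In Col6a1+ CAFs, Postn, Tnc, Thy1, Cd248 and Sparc were highest in replicate 3, where Fn1 was lowest. The share of all genes highest in these libraries was not computed. The sum of the pan-fibroblast markers, described below, was also highest in them. It was 15565, 16004 and 7779 normalized counts in Col6a1- CAFs and 46524, 50448 and 57392 in Col6a1+ CAFs. The ratio of Sparc to Fn1 counts was 1.99, 4.39 and 7.35 in the Col6a1+ libraries and 1.04, 1.70 and 1.77 in the Col6a1- libraries. The ratio of Thy1 to Pdpn counts was 2.37, 0.44 and 2.72 in Col6a1+ CAFs and 0.29, 0.21 and 0.10 in Col6a1- CAFs. Neither ratio overlapped between the subsets, whereas that of Cd248 to Fap did, at 3.26, 10.4 and 13.5 against 1.57, 3.84 and 1.90. Summed over the 10 markers, the level was 18608, 30698 and 34019 normalized counts in Col6a1+ CAFs, or 0.561% to 0.993% of a library, and 4401, 7524 and 4120 in Col6a1- CAFs, or 0.128% to 0.229%. Sparc alone made up 52.1% to 68.9% of that sum in Col6a1+ CAFs and 39.7% to 55.3% in Col6a1- CAFs. Sparc, Fn1 and Postn together made up 86.9% to 89.6% and 83.1% to 89.2%, so the sum says little of the other markers. Of that sum, Pdpn made up 2.29% to 5.49% in Col6a1+ CAFs and 7.84% to 11.7% in Col6a1- CAFs, while Cd248 made up 0.683% to 1.43% and 0.250% to 0.970%.

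Several lists of markers of other cells, and of fibroblasts in general, also differed between the subsets, in both directions. The 10 pan-fibroblast markers summed to 46524 to 57392 normalized counts in Col6a1+ CAFs and 7779 to 16004 in Col6a1- CAFs, and 6 of them were higher in Col6a1+ CAFs and 0 lower (2 unadjusted calls, of Dcn higher and Mfap5 lower, did not pass). Pdgfra, the surface marker of most intestinal fibroblasts, had 1145, 1253 and 808 normalized counts in Col6a1+ CAFs and 347, 233 and 203 in Col6a1- CAFs. The 10 pericyte markers were all higher in Col6a1+ CAFs and summed to 42843 to 92163 normalized counts there, against 1173 to 2207. Rgs5, a regulator of G protein signalling that defines pericytes, had 42173, 29648 and 31282 against 509, 700 and 297. In the Tomato+ libraries, the 10 epithelial markers summed to 20190 to 32330, above the 5750 to 6474 of the GFP+ libraries, with 7 lower in Col6a1+ CAFs and 0 higher. Epcam, whose product was used to remove epithelial cells in the sort, had 3107, 4129 and 3730 normalized counts in Col6a1- CAFs and 1074, 884 and 615 in Col6a1+ CAFs. Immune markers were low, with sums of 42 to 58 in Col6a1+ CAFs and 91 to 185 in Col6a1- CAFs, and endothelial markers summed to 208 to 436 and 204 to 493, with 1 of 8, Tie1, higher. Pecam1, which encodes CD31, had at most 64 counts in any library. None of the mesothelial, erythroid or proliferation genes passed in limma. Of the 5 lymphatic endothelial markers, whose cells carry podoplanin, Prox1 was lower in Col6a1+ CAFs, with 15, 139 and 93 normalized counts against 2154, 1100 and 2644. Prox1 is also known from some epithelial cells. Flt4 (0, 0 and 0 against 24, 27 and 4) and Mmrn1 (0, 0 and 5 against 9, 18 and 9) were separated in the same direction without passing. Ccl21a (5, 8 and 15 against 102, 53 and 6) and Lyve1 (0, 3 and 27 against 22, 18 and 26) overlapped. Without Col6a1- replicate 1, 4 of the pericyte markers, 0 of the pan-fibroblast and 0 of the epithelial markers passed. The part of these other cells in the marker differences was not tested.

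**Figure D3:**
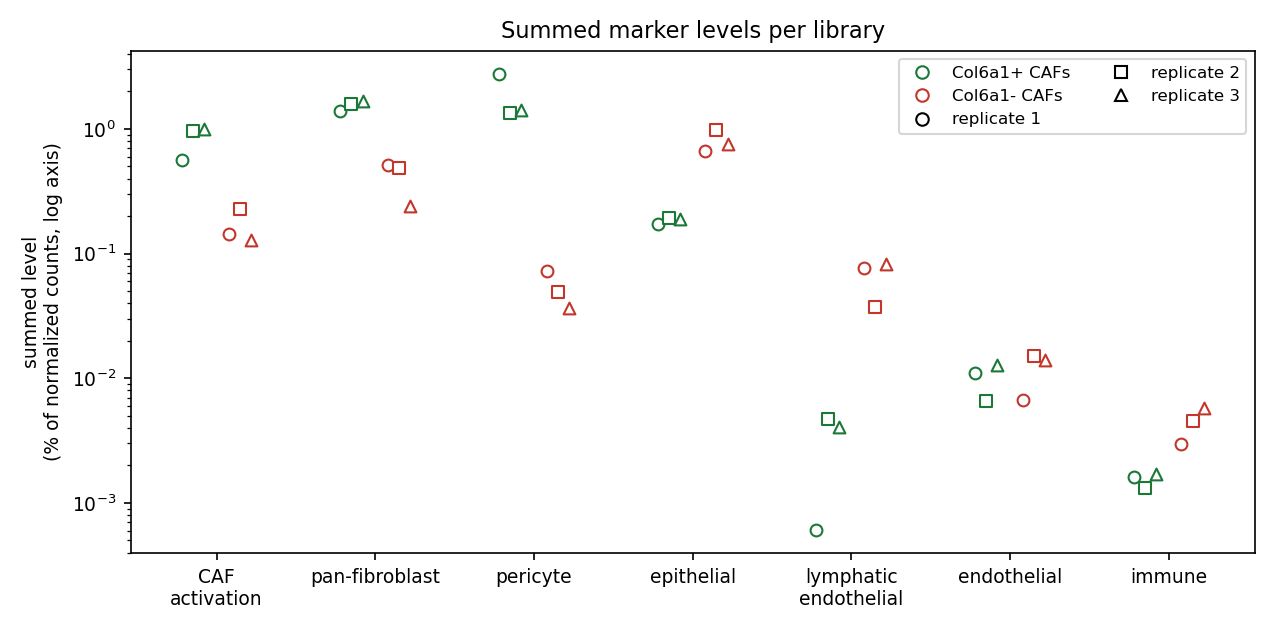
Summed level of the CAF activation markers and of 6 lists of cell type markers in each library, as the percentage of all normalized counts (y axis, log scale); symbols are single libraries. CAF activation, pan-fibroblast and pericyte sums are higher in the 3 Col6a1+ libraries, and endothelial sums overlap. Sparc alone gave 39.7% to 68.9% of the CAF activation sums. Epithelial, lymphatic endothelial and immune sums are higher in the 3 Col6a1- libraries. Prox1 alone gave 2154, 1100 and 2644 of the 2311, 1216 and 2689 normalized counts in the lymphatic endothelial sums of Col6a1- CAFs.

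Scaling to the pan-fibroblast markers moved the log2 differences downward. When every library was scaled to the same sum of these markers, a choice made after seeing the data, the median log2 difference over all genes moved from -0.27 to -1.59, and that of the 10 CAF markers from 2.11 to 0.13. Thy1 and Postn then stayed higher in Col6a1+ CAFs, by 1.72 and 1.32 on the log2 scale (limma adjusted p = 0.0170 and 0.0472). Cd248, at 1.49, no longer passed over all genes (adjusted p = 0.105), nor did Sparc at 0.72 and Tnc at 0.52 (adjusted p = 0.358 and 0.424). Fn1, Fap and Pdpn turned to -0.73, -0.26 and -1.22, none of them past the threshold (adjusted p = 0.271, 0.790 and 0.0609). With this scaling 0.602% of all genes were higher and 36.1% lower. The scaling multiplies each library by 1 factor, so well-detected markers shift by nearly the same amount and keep their order. Which of them stay above 0 thus follows from the fit without scaling. With so many genes called, the adjustment also passes larger p-values. Postn passed at an unadjusted limma p of 0.017, whereas Mfap5, at 0.0179 without scaling, had an adjusted p of 0.170.

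The nearest relatives of the markers, and the receptors and partners of their products, were also measured. Of 14 relatives, 4 were higher in Col6a1+ CAFs and 1 was lower, and the median of the list was 0.99 on the log2 scale. Relatives of Sparc went in both directions. Sparcl1, or hevin, had 2183, 1491 and 1608 normalized counts in Col6a1+ CAFs against 122, 130 and 43, and Fstl1 had 2790, 3914 and 3548 against 532, 520 and 362. The log2 differences were 4.28 and 2.86 (limma adjusted p = 8.62e-04 for both). Smoc2, another calcium-binding matrix protein of the family, was lower in Col6a1+ CAFs, with 83, 60 and 49 against 1281, 409 and 840 and a log2 difference of -3.58 (limma adjusted p = 0.00190). Smoc1 had 195, 200 and 222 normalized counts in Col6a1+ CAFs against 151, 41 and 33. Its log2 difference of 1.78 did not pass (limma adjusted p = 0.0992). Tgfbi, the paralog of Postn, and Thbd, a C-type lectin like Cd248, were higher by 1.60 and 1.85 on the log2 scale (limma adjusted p = 0.0207 and 0.0180). Dpp4, the closest relative of Fap, had 0, 11 and 1 normalized counts in Col6a1+ CAFs and 31, 20 and 24 in Col6a1- CAFs. Its groups did not overlap, opposite in order to those of Fap, but the difference did not pass (limma adjusted p = 0.155). Tenascins other than Tnc (Tnxb, Tnr and Tnn) had at most 27 counts in any library.

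Of 18 receptors and partners tested, 6 were higher and 1 lower (list median 0.73 on the log2 scale). The integrin chains Itga4, Itgb5, Itgb3 and Itgb1, parts of receptors for fibronectin, periostin or tenascin C, were higher in Col6a1+ CAFs by 4.24, 2.68, 3.17 and 1.88 on the log2 scale (limma adjusted p = 0.00220, 0.00232, 0.0201 and 0.0208). Itga5, the alpha chain of the main fibronectin receptor, had 1, 505 and 530 normalized counts in Col6a1+ CAFs and 30, 188 and 179 in Col6a1- CAFs. The replicate 1 library of each subset was well below the other 2, and the subsets overlapped (limma adjusted p = 0.935). Of the other integrin genes, Itga9, Itgav and Itga8 had log2 differences of 1.61, 0.67 and -0.53 that did not pass (limma adjusted p = 0.0770, 0.603 and 0.761). Itgb8, with 0, 8 and 4 against 20, 15 and 16 normalized counts, and Itgb6, with 1, 10 and 16 against 14, 58 and 29, had log2 differences of -2.33 and -2.05 that did not pass either (limma adjusted p = 0.312 and 0.350). Podoplanin binds proteins of the ezrin, radixin and moesin family and also CD44. Of these, Msn and Cd44 were higher in Col6a1+ CAFs (by 1.75 and 1.74, limma adjusted p = 0.00926 and 0.00771) and Ezr, the form of epithelia, was lower (-2.26, limma adjusted p = 0.0129). Rdx, for radixin, overlapped between the subsets, with 8, 48 and 85 normalized counts in Col6a1+ CAFs against 12, 25 and 21 (limma adjusted p = 0.642).

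Among 16 TGF-beta inducers and readouts, 4 were higher and 0 lower, and the list median was 0.40. At an unadjusted limma p under 0.05 with no limit on the fold change, 6 were higher and 1 lower. The share of all genes by that rule was not computed. The ligand gene Tgfb2 had 1643, 1207 and 1366 normalized counts in Col6a1+ CAFs and 96, 130 and 135 in Col6a1- CAFs, which is 3.54 ± 0.29 (SE) higher on the log2 scale (limma adjusted p = 3.56e-04). Tgfb3 was higher by 3.15 and Ltbp1, which stores latent TGF-beta in the matrix, by 2.06 (limma adjusted p = 0.0174 and 0.00528). Ctgf, a common readout, was higher by 1.56 (limma adjusted p = 0.0474). Among the readouts that did not pass, Skil, Smad7 and Bambi had log2 differences of 0.33, -0.21 and -2.98 (limma adjusted p = 0.642, 0.793 and 0.224). Tgfb1 itself was low in both subsets, at 43, 29 and 27 against 12, 18 and 5 normalized counts (limma adjusted p = 0.331).

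Genes used to name CAF states were set beside the markers. Of 20 myofibroblastic CAF genes, 8 were higher and 1 lower (list median 1.60). The higher ones were mostly contractile genes, such as Acta2, Tpm2 and Tagln, at log2 differences of 3.88, 3.35 and 3.49 (limma adjusted p = 0.00353, 0.00437 and 0.00593), with Tpm1 at 1.72 and the secreted Igfbp7 at 3.73 (limma adjusted p = 0.0130 and 0.00509). Several of these are also smooth muscle and pericyte genes. The metalloproteinase Mmp11 was higher by 3.26 (limma adjusted p = 0.0373), and the lower gene was Hopx, at -2.28 (limma adjusted p = 0.0369). Col11a1 and Comp, which mark dense tumor stroma, had 0 counts in every library but Col6a1- replicate 3, which held 9 and 3. Lrrc15 was also highest in that library, but had 3 counts in Col6a1+ replicate 1 and in Col6a1- replicate 2. Of 20 inflammatory CAF genes, 7 were higher and 0 lower (11 and 0 at an unadjusted p under 0.05), with a median of 1.19. Il6, the interleukin of the acute phase, had 2525, 811 and 1046 normalized counts in Col6a1+ CAFs against 55, 63 and 23, or 4.87 higher on the log2 scale (limma adjusted p = 9.53e-04). Ptgs2, a prostaglandin synthase, and the chemokines Cxcl1, Ccl2 and Cxcl14 were higher by 1.97, 2.45, 2.42 and 1.35 (limma adjusted p = 0.00414, 0.00641, 0.00656 and 0.0204). Of 6 antigen-presenting CAF genes none passed in limma, with 1 higher and 2 lower at an unadjusted p under 0.05, and their median was -0.70. For the inflammatory and antigen-presenting lists too, the unadjusted counts set no fold limit. The share of all genes by that rule was not computed. These list counts depended on the scaling and on single libraries. After scaling to the pan-fibroblast markers, 1 relative was higher and 4 lower, 1 receptor or partner was higher and 6 lower, and 1 TGF-beta gene was higher and 7 lower. Of the myofibroblastic genes 4 were then higher and 5 lower, of the inflammatory genes 1 and 7, and of the antigen-presenting genes 0 and 5. Over all genes tested, 0.602% were higher and 36.1% lower with this scaling. When 1 library was left out, 0 to 3 relatives, 0 to 5 receptors or partners, 1 to 3 TGF-beta genes, 0 to 5 myofibroblastic and 0 to 6 inflammatory genes were higher, each lowest without Col6a1- replicate 1. With the replicate block none of these genes had an adjusted p under 0.05.

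**Figure D4:**
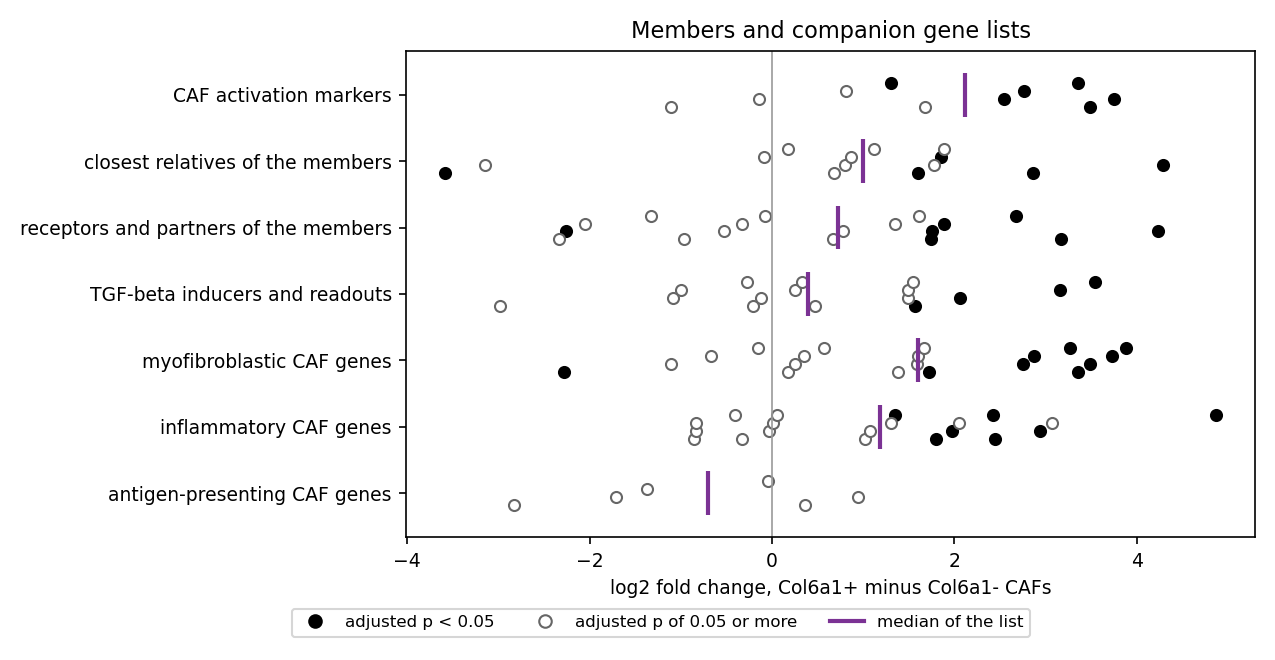
Log2 fold changes, Col6a1+ minus Col6a1- CAFs (x axis), of the CAF activation markers and 6 companion gene lists. Points are genes, filled where the limma adjusted p is under 0.05, and vertical bars are list medians, which run from -0.70 for antigen-presenting CAF genes to 2.11 for the CAF activation markers.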

How the data were processed

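The 6 libraries of 3′ mRNA sequencing were grouped by the titles of the samples. The authors mapped reads to mm10 with TopHat2 and remapped the rest with Bowtie2, counted them per gene, normalized with DESeq through metaseqR, and deposited log2 of the normalized count plus 1 for each library. These log2 values were turned back into normalized counts and rounded to whole numbers, and log2 was taken again for the fits. The file also holds the p-values, false discovery rates and fold changes of the authors' own comparison, and group means, none of which were used, and 6 further columns of per-sample values that were not used. Strand use in counting is not given in the sources used here.

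Genes whose normalized counts summed to at least 1 (26402) were fitted with limma 3.58.1 in R 4.3.3 (lmFit, then eBayes with trend), with Benjamini-Hochberg adjustment. The design allowed for raw counts and named this test for normalized values. Fold changes are on the log2 scale with a pseudocount of 1, which understates the change of low genes. Simulated counts of 25090 genes with 200 changed 8-fold gave 145 right calls and 0 false ones. The simulation gave every gene the same fixed spread, without pairs or library effects, and changed only genes averaging at least 10 counts. It therefore does not measure the rate of false calls in these data. The tables were handled with Python 3.11.15 and pandas 2.3.3.

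The markers and companion lists were chosen with earlier results of these data known. The genes named are the 10 markers, Col6a1, the lists' genes at an adjusted p under 0.05 (up to 5 in each direction by smallest p) and the defining markers of other cells, 1 of which is not reported here. Other genes (Dpp4, Smoc1, Rdx, Itga5, Itgb1, Mmp11, Tie1, Tgfb1, Col11a1, Comp, Tnxb, Tnr, Tnn, Itga9, Itgav, Itga8, Itgb8, Itgb6, Skil, Smad7, Bambi, Cd3e, Cd3d, Ccl21a, Lyve1, Flt4, Mmrn1, Dcn, Mfap5) were picked after their values were seen. Coordinates are those of the file on mm10, equal to GENCODE M21 for 9 of the 10 markers. The replicate numbers were read as pairs, since over 13515 genes the deviations from the group means correlated at 0.245, 0.125 and 0.144 between libraries of the same number, and at -0.245 to 0.15 between libraries of different numbers, the highest of them Col6a1+ replicate 2 with Col6a1- replicate 3. The study counts 3 samples, each a pool of mice, so both subsets of a number may come from 1 pool, which the sources used here do not state. The p-values measure the spread between these libraries. The alternatives were other filters, library size scaling, a pseudocount of 0.1, the replicate block, quality weights, scaling to pan-fibroblast markers and leaving out each library. When a library was left out, the filter was applied to the remaining ones.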

Additional observations from a re-analysis of the deposited data

How the results depend on the processing

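The 6 calls among the CAF markers were kept in number with library size scaling, with a mean of at least 10 or at least 10 in every library, with a pseudocount of 0.1 and with array quality weights. They fell to 0 with the replicate block and when no filter was applied (all genes then 0 and 0, and 21 higher and 7 lower). With the block over genes with a mean of at least 10 they were 6, and all genes 981 higher and 871 lower. When 1 library was left out, 0 to 4 of the markers (0 without Col6a1- CAF replicate 1 or replicate 3) and 11 to 453 of all genes were higher, and 1 to 442 of all genes lower. In repeats of these fits that kept genes at 0 in the remaining libraries, chosen after seeing the data, 0 markers passed in all 6, and all genes gave 98 higher and 166 lower without Col6a1- CAF replicate 2, 63 and 125 without its replicate 3, and 0 and 0 in the other 4. The 6 genes had an unadjusted p under 0.05 in each fit that left out 1 library. At an unadjusted p with an absolute log2 fold change over 1, 1607 genes were higher and 2273 lower, 7 of them markers. A pseudocount of 0.1 gave 336 lower genes, and quality weights 969. Scaling to pan-fibroblast markers gave 159 higher and 9525 lower genes and 2 higher markers, with a median of 0.13, against medians of 2.65 with a mean of at least 10 (with or without the block) and 2.76 with at least 10 in every library. It turned Fap, Pdpn and Fn1 to -0.26, -1.22 and -0.73. Cthrc1 changed sign with quality weights (0.034) and lay between -0.67 and 0.53 without 1 library. The causes of these changes were not tested. Cthrc1 and Lrrc15 were near 0 in every library, so their differences rest on few counts.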
